A study of Mus musculus with 4 samples.

Results

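The 4 Hox clusters of the mouse hold 39 genes in the RefSeq gene table, 11 in Hoxa, 10 in Hoxb and 9 each in Hoxc and Hoxd. The members were the array's probe sets annotated with exactly 1 gene whose symbol is Hox, a cluster letter from a to d and a position number. Of the 39 genes, 33 had such a probe set, out of 18193 genes measured, and where a gene had several, the probe set of highest mean signal was taken for it. The 33 genes comprised 9 of Hoxa, 9 of Hoxb, 7 of Hoxc and 8 of Hoxd. The remaining 6 genes are not analysed here. Expression was measured on single-colour Affymetrix arrays, labelled from the 3' end of total RNA, in mouse embryonic stem (ES) cells, which are pluripotent and can form all tissues of the embryo. The study compared 2 arrays of Snai1 knockout ES cells with 2 arrays of control ES cells, all grown with leukaemia inhibitory factor on feeder cells and given no other treatment. Snai1 encodes Snail, a zinc finger repressor of epithelial genes. The control titles carry F/F, which the labels leave unexplained, and the control source name also contains the words knock out. The direction of each difference therefore rests on the titles and the genotype field. The labels call the 2 arrays of a group biological replicates and do not say what separates them, so the p-values measure only the spread between these arrays.

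Hox genes encode homeodomain transcription factors that give the cells of the body axis their regional identity. Within a cluster, genes at low position numbers are used in anterior regions such as the hindbrain, and genes at high numbers in posterior regions such as the tail, the distal limb and the genital tract. Genes at the same position in different clusters are paralogues. In undifferentiated ES cells the clusters are textbook targets of Polycomb repression, in which PRC2 methylates histone H3 and PRC1 acts on the same chromatin. Retinoic acid, Wnt and Cdx factors open them during differentiation, and Trithorax complexes maintain the active state. Fibroblasts, the usual feeder cells, express Hox genes according to the body region they come from.

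Promoter sequences are shown because dense CpG is the sequence feature that Polycomb targets are known for, and because Snail binds E-box motifs. RefSeq windows (GRCm38.p6) of 300 bases, from 250 before to 50 after a gene's start, were at hand for 19 of the 33 genes, in 21 windows. Those of 3 genes are printed with each CpG in capitals: Hoxd13, which had the largest difference, and Hoxa7 and Hoxd9, which lay above background in all 4 arrays.
Hoxd13 (chr2:74667975-74668274, plus strand): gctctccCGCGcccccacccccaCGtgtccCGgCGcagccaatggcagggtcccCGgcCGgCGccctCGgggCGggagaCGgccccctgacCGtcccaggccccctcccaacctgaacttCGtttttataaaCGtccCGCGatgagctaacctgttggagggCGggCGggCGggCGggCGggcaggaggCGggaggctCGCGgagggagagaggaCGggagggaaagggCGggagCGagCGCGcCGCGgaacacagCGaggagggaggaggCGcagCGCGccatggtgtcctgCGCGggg
Hoxa7 (chr6:52218524-52218823, minus strand): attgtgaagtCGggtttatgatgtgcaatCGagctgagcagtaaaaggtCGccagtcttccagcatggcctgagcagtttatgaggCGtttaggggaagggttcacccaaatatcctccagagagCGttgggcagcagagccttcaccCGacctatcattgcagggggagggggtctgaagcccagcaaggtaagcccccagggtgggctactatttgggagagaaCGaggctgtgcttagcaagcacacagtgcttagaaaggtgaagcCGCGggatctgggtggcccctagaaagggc
Hoxd9 (chr2:74697513-74697812, plus strand): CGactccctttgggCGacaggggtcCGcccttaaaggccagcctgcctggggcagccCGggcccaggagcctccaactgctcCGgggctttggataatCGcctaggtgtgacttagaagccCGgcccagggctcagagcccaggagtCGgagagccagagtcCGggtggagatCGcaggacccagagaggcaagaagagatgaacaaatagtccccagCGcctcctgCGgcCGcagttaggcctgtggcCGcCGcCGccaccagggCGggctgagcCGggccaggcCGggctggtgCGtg
The windows held 37, 9 and 20 CpG in this order. Over the 21 Hox windows the CpG count ranged from 4 to 45 with a median of 15, against a median of 7 over all 32851 windows of the table, and 18 of the 21 (85.7%) lay above that median, against 48.6% of all windows. The 7 windows of genes above background in all 4 arrays, from 7 genes, had a median of 9.0 CpG and a range of 4 to 29. The 14 windows of other members, from 12 genes, had a median of 20.0 and a range of 4 to 45. Whether these windows differ in CpG was not tested. The hexamer CAGGTG, or CACCTG on the other strand, the E-box form bound by Snail, was found in 0 of the 21 Hox windows and in 20.2% of all windows. This says only that these letters are not in these windows.

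The medians of the arrays ran from 4.91 to 4.95 on the deposited log2 scale. RMA, the normalization named in the submitters' notes, makes the arrays alike in this, so the medians say nothing of the samples. Correlations over genes were 0.994 within each group. All 16 ES cell markers examined lay above background in every array. Of them 6, Nanog and Pou5f1 included, rose in the knockout past an adjusted p of 0.05 in limma, and 0 fell. Of all genes 4.14% were called in either direction. The median difference of the 16 markers was 0.08, with 11 higher and 5 lower in the knockout, and Sox2 differed by -0.02. Snai1 itself was at 3.79 and 4.04 in knockout cells against 4.41 and 4.69 in control cells, all within background, so it does not check the labels. The distance between the 3' and 5' control probe sets of Actb, a measure of RNA integrity and labelling, was 1.11 and 0.80 in knockout cells against 3.02 and 2.97 in control cells.

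Most Hox genes gave little signal over background in either group. Background was taken from 27 control probe sets for Bacillus transcripts, which no mouse RNA should bind and which spanned 2.91 to 4.77. A gene was called above background where its signal exceeded this highest value, 4.77, in all 4 arrays. By this measure 12 of the 33 Hox genes (36.4%) were above background, against 65.1% of all genes. A further 5 genes exceeded it in some arrays (Hoxa3, Hoxb9, Hoxc5, Hoxc13 and Hoxd13) and 16 in none. Signals of different probe sets also depend on how well their probes bind, so they were not ranked as amounts of RNA. In cells measured in bulk, fewer cells of a type and less RNA per cell cannot be told apart.

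**Figure D1:**
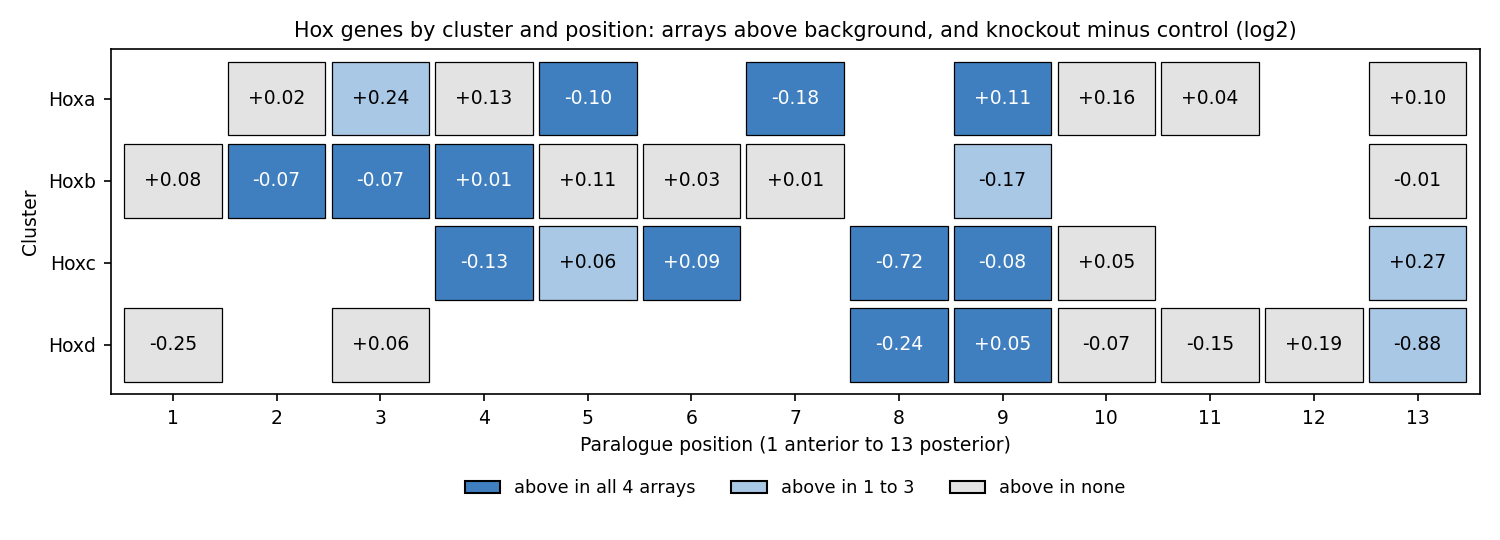
Hox genes laid out by cluster (rows) and paralogue position (columns), with the shade giving how many of the 4 arrays lay above background and the number in each cell the knockout minus control difference (log2); a blank place holds no measured gene. The 12 dark cells lie at positions 2 to 9, and no gene at positions 10 to 12 was above background in any array.

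The genes above background were 2 of the 7 measured at positions 1 to 3, 7 of 12 at positions 4 to 8 and 3 of 14 at positions 9 to 13, the last 3 all at position 9. By cluster they were 3 of 9 in Hoxa (Hoxa5, Hoxa7 and Hoxa9), 3 of 9 in Hoxb (Hoxb2, Hoxb3 and Hoxb4), 4 of 7 in Hoxc (Hoxc4, Hoxc6, Hoxc8 and Hoxc9) and 2 of 8 in Hoxd (Hoxd8 and Hoxd9). With a limit 1 log2 unit higher, 2 of the 33 genes, Hoxa5 and Hoxc9, were above it in all 4 arrays. The 16 genes above background in no array had values from 3.08 to 4.62. They were Hoxa2, Hoxa4, Hoxa10, Hoxa11, Hoxa13, Hoxb1, Hoxb5, Hoxb6, Hoxb7, Hoxb13, Hoxc10, Hoxd1, Hoxd3, Hoxd10, Hoxd11 and Hoxd12. Among them are Hoxb1, which acts in the hindbrain, Hoxa2, a selector of the second branchial arch, and Hoxa13, which acts in the digits and genital tract.

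Of the anterior genes, Hoxb2, a hindbrain gene and a target of Egr2, was at 5.43 and 5.11 in knockout cells against 5.48 and 5.19 in control cells. Hoxb3, which also acts in the hindbrain, was at 5.20 and 5.11 in knockout cells against 5.26 and 5.18 in control cells. In both genes the groups overlapped, and in both the first replicate was the higher one in each group. Hoxa3, needed for the thymus and parathyroid, was at 4.99 and 4.93 in knockout cells against 4.66 and 4.78 in control cells, with 1 control array inside the background range. Its groups did not overlap, and the difference of 0.24 ± 0.13 (SE) missed the threshold (limma adjusted p = 0.336). The 3 other probe sets of Hoxa3 lay within background in all arrays and differed by -0.09, 0.08 and -0.21.

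Among the central genes, Hoxb4, known for expanding blood stem cells, was at 5.34 and 5.38 in knockout cells against 5.49 and 5.21 in control cells. Hoxc4 was at 4.79 and 5.29 in knockout cells against 5.33 and 5.00 in control cells. For both genes the 2 groups overlapped, and the arrays of 1 group differed more than the group means. Hoxa5, which acts in the lung and the neck and upper thoracic skeleton, was at 6.15 and 6.28 in knockout cells against 6.31 and 6.32 in control cells. Hoxc6, a thoracic gene, was at 5.23 and 5.26 in knockout cells against 5.08 and 5.22 in control cells. Hoxa7 was at 5.71 and 5.61 in knockout cells against 5.82 and 5.87 in control cells. In these 3 genes the groups did not overlap, by gaps small enough that the differences were -0.10 for Hoxa5, 0.09 for Hoxc6 and -0.18 for Hoxa7, each with an SE of 0.13 or 0.14. Hoxd8 was at 5.00 and 5.04 in knockout cells against 5.33 and 5.18 in control cells, a difference of -0.24 ± 0.14 (SE) that did not pass (limma adjusted p = 0.356).

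At position 9, the genes that pattern the lower thoracic and lumbar levels, Hoxc9 was at 6.19 and 6.22 in knockout cells against 6.24 and 6.34 in control cells. Hoxa9, also active in blood progenitors, was at 5.63 and 5.64 in knockout cells against 5.51 and 5.54 in control cells. Hoxd9 was at 5.37 in both knockout arrays and at 5.34 and 5.29 in the control. The 4 arrays of each of these genes lay close together, and the groups did not overlap in any of them. The differences were -0.08 for Hoxc9, 0.11 for Hoxa9 and 0.05 for Hoxd9, each with an SE of 0.13. That SE comes from limma, which draws a gene's variance toward that of all genes. The arrays of Hoxa9 themselves had SDs of 0.013 in the knockout and 0.016 in the control. Hoxb9, the remaining paralogue, was at 4.91 and 4.46 in knockout cells against 4.89 and 4.82 in control cells, so it lay above background in 3 arrays. Hoxc13, a hair and nail gene, was at 4.90 and 4.82 in knockout cells against 4.94 and 4.25 in control cells. Its groups overlapped, and the difference of 0.27 ± 0.22 (SE) was positive only while control replicate 2 was included. Without that array it was -0.08.

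**Figure D2:**
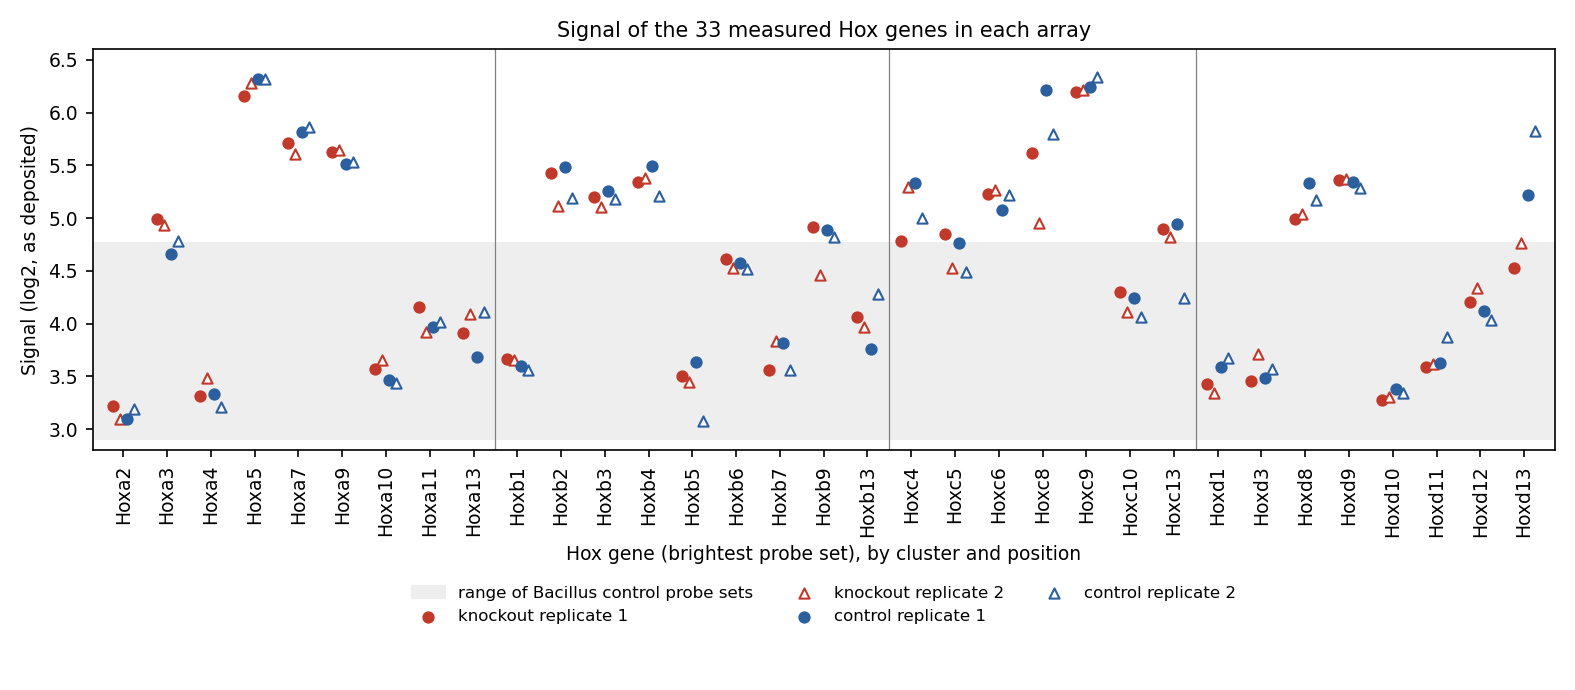
Deposited log2 signal of the 33 Hox genes (columns, by cluster and position) in each array, with knockout in red, control in blue, replicate 1 as filled circles and replicate 2 as open triangles. The grey band spans the background signals, 2.91 to 4.77, and Hoxc8 and Hoxd13 are the genes whose red and blue symbols stand farthest apart.

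Other probe sets of the same gene often gave a different level. Of the 33 genes 11 had 2 to 4 probe sets, and the brightest and dimmest of a gene differed by 0.09 (Hoxa10) to 2.59 (Hoxa5) in mean signal. The bright probe set of Hoxa5 is of the class that Affymetrix marks with an x for probes that may also bind other transcripts, and the other probe set of Hoxa5 was at a mean of 3.68, within background. The second probe sets of Hoxa9, Hoxb3, Hoxb4 and Hoxd8 also lay within background in all arrays. That of Hoxa9 differed by -0.30, opposite in sign to the 0.11 of its bright probe set, and the average of both differed by -0.09. Of the members with several probe sets, Hoxc6 was the one with 2 probe sets above background in all 4 arrays. Those 2 differed between the groups in opposite directions, by 0.09 and -0.13, and the third probe set of Hoxc6 differed by -0.38.

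No Hox gene differed between knockout and control past the threshold, an adjusted p of 0.05 in limma over all 18193 genes. Thus 0 of 33 rose and 0 of 33 fell, against 4.14% of all genes called in either direction. At an unadjusted p under 0.05 in limma, 2 of the 33 Hox genes were lower and 0 were higher, against 23.9% of all genes in either direction. The knockout and control arrays did not overlap for 16 of the 33 genes, 7 higher and 9 lower in the knockout, against 52.3% of all genes. Over the 33 genes the differences ran from -0.88 to 0.27 with a median of 0.02, beside a median of -0.02 over all genes. The median size of the difference, regardless of direction, was 0.10 for the Hox genes, 0.18 for all genes and 0.12 for the 9000 genes with means in the range of the Hox genes, 3.15 to 6.27. Among those 9000 genes 38 rose and 51 fell, and 2930 (32.6%) were above background in all 4 arrays. The knockout and control arrays did not overlap for 3669 of the 9000, 1980 higher and 1689 lower in the knockout. Whether the Hox genes differ from them in this was not tested.

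The 95% intervals from limma give how large a difference in signal could have been missed. They are not adjusted for the number of genes. For genes within background they describe a steady background signal and set no limit on a change in RNA. The intervals lay wholly within 0.5 of zero for 22 of the 33 genes and within 1 for 31, and they included zero for 31. The exceptions to both of the last counts were Hoxc8 and Hoxd13. Intervals within 0.5 were those of 9 of the 12 genes above background in all 4 arrays. They were also those of 12 of the 16 genes above it in none. By cluster the median difference was 0.10 in Hoxa, 0.01 in Hoxb, 0.05 in Hoxc and -0.11 in Hoxd. By position it was 0.02 at positions 1 to 3, 0.01 at positions 4 to 8 and 0.05 at positions 9 to 13. The median of all 33 turned negative without knockout replicate 1 (-0.04) and without control replicate 2 (-0.03). For positions 1 to 3, 4 to 8 and 9 to 13 and for Hoxb and Hoxc this median changed sign on leaving out at least 1 array. For the 12 genes above background in all 4 arrays it was -0.08, with 4 genes higher and 8 lower in the knockout. With genes above background in at least 2 arrays, the median was -0.08 over 16 Hox genes and -0.04 over all 12524 genes.

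**Figure D3:**
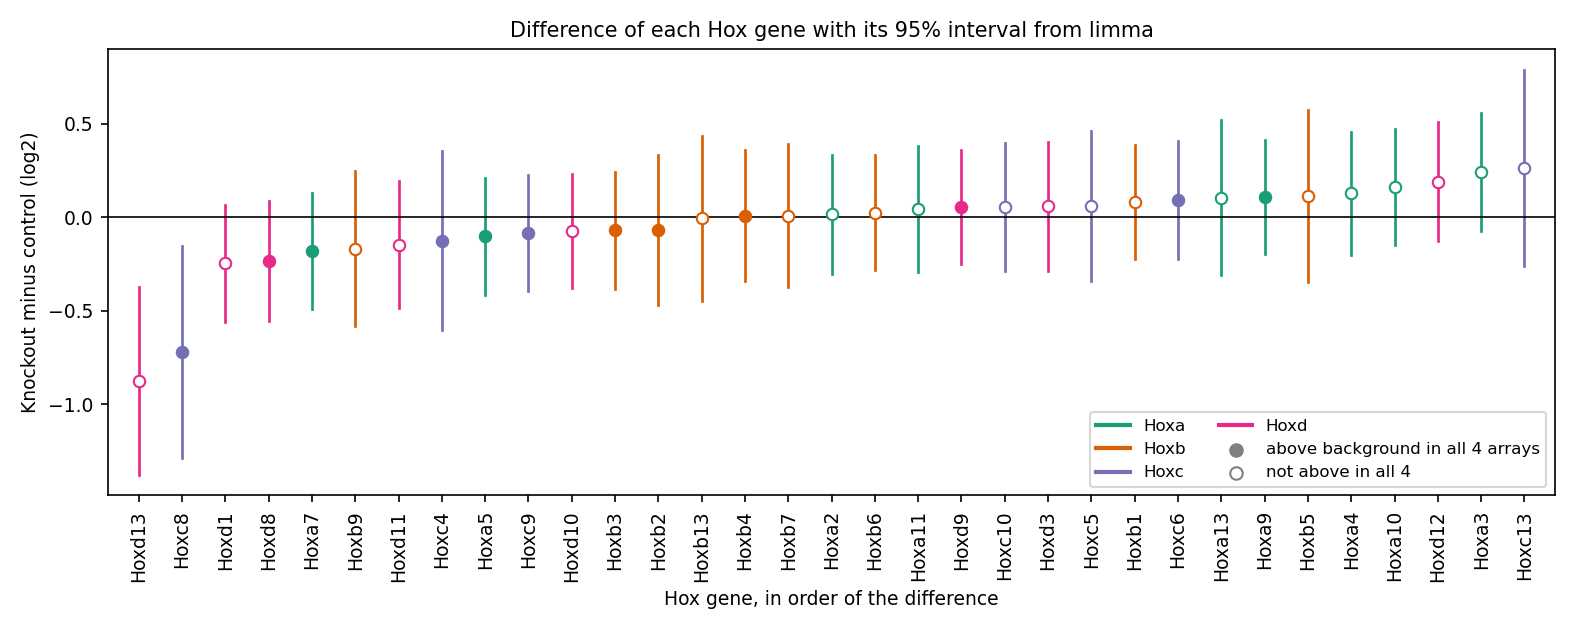
Knockout minus control difference (log2) of the 33 Hox genes, in order of size, with 95% intervals from limma as vertical lines and the cluster as colour; filled points are genes above background in all 4 arrays. The intervals of Hoxd13 (-1.38 to -0.38) and Hoxc8 (-1.29 to -0.15) lie below zero and the other 31 include it.

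Hoxd13, which patterns the digits, had the largest difference. Its brighter probe set was at 4.52 and 4.76 in knockout cells, inside the background range, against 5.22 and 5.82 in control cells. The groups did not overlap, and the difference was -0.88 ± 0.21 (SE), just short of the threshold (limma adjusted p = 0.0617). Because the knockout arrays lay in the background range, only a rough bound can be given. The control mean, 5.52, was set against the background limit, 4.77, in place of the measured knockout mean, 4.64. This put the control mean 1.69-fold above that limit. The figure takes no account of the spread between arrays, and the difference was -0.57 without control replicate 2. The other probe set of Hoxd13 was at 4.81 and 4.76 in knockout cells against 4.58 and 4.99 in control cells and differed by -0.0040. With both probe sets averaged, the difference was -0.44 (limma adjusted p = 0.230).

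Hoxc8, a thoracic gene of the skeleton and spinal motor neurons, had the next largest difference and a single probe set. It was at 5.61 and 4.96 in knockout cells against 6.22 and 5.80 in control cells, above background in all 4 arrays. The groups did not overlap, though knockout replicate 1 and control replicate 2 lay close together. The difference was -0.72 ± 0.24 (SE), a 1.65-fold lower mean in the knockout that missed the threshold (limma adjusted p = 0.123). It was -0.39 without knockout replicate 2 and -1.05 without knockout replicate 1.

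Fibroblast markers and a measure of RNA integrity were read beside these 2 genes. Of 24 fibroblast markers 22 were above background in all 4 arrays, among them Col1a2, Fn1 and Thy1, and they averaged 8.06 in replicate 1 and 7.46 in replicate 2 of the knockout, against 8.16 and 7.54 for the control. This mean followed the replicate number more than the group. Of the 24, 1 rose past the threshold (Ccl2) and 0 fell, beside 4.14% of all genes called. In the knockout 13 were higher and 11 lower, and the largest difference was that of Prrx1 (-1.24, limma adjusted p = 0.0549). Hoxc8 was higher in replicate 1 by 0.66 in the knockout and by 0.42 in the control, as was the marker level, whereas the replicate 1 minus replicate 2 difference of Hoxd13 was negative in both groups, -0.24 and -0.61. With the marker level as a covariate, the difference was -0.64 for Hoxc8 (limma adjusted p = 0.00905) and -0.95 for Hoxd13 (limma adjusted p = 0.000974). That fit left 1 residual degree of freedom and called 17.4% of all genes. It called 2 of the 33 Hox genes, these same 2. The Actb gap differed by -2.04 (knockout minus control), smaller in the knockout as were both genes, and its part in the result was not tested. After removal of a trend with genomic span and level from every array, the differences were -0.78 for Hoxc8 and -0.92 for Hoxd13, and neither passed (limma adjusted p = 0.126 and 0.0629).

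**Figure D4:**
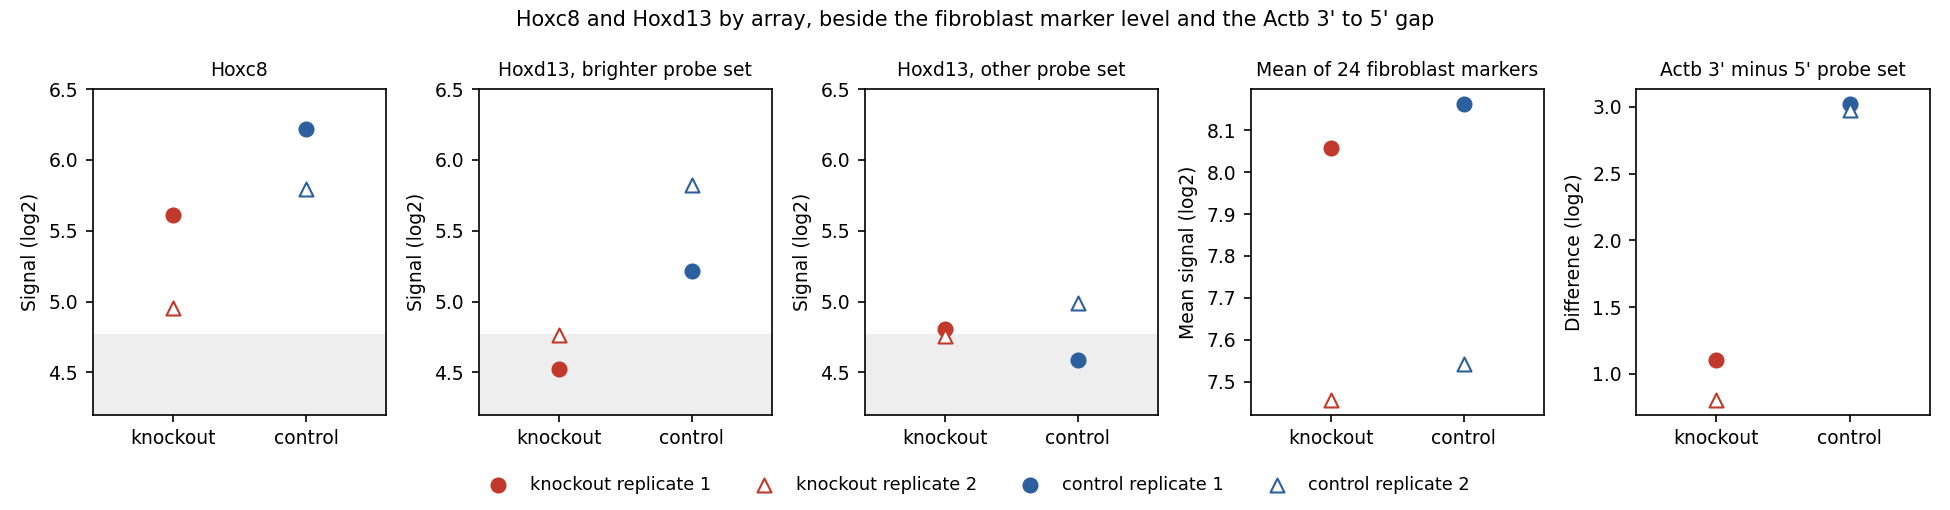
Values of each array for Hoxc8, both probe sets of Hoxd13, the mean of 24 fibroblast markers and the Actb 3' minus 5' gap (log2), with knockout in red, control in blue, replicate 1 as circles and replicate 2 as triangles, and the background range in grey. Hoxc8 and the marker mean are both higher in replicate 1 of each group, the brighter Hoxd13 probe set is higher in replicate 2 of each group, and the other Hoxd13 probe set does not separate the groups.

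The order of the replicates was counted as well. In 10 of the 33 Hox genes replicate 1 was higher than replicate 2 in both groups, against 24.5% of all genes and 17 of the 24 fibroblast markers. In 8 replicate 2 was the higher one in both, against 5624 of all 18193 genes. The 10 included 6 of the 9 Hoxb genes, 4 of the 7 Hoxc genes and none of Hoxa or Hoxd. Of the 10, 3 were above background in all 4 arrays and 4 in none. Whether the clusters differ in this order was not tested. The mean signal of all 33 was 4.54 and 4.51 in knockout cells against 4.58 and 4.54 in control cells.

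Homeobox genes outside the clusters, such as those of the Dlx, Lhx, Nkx and Pitx families, were measured beside the Hox genes. Of 76 measured, 32 (42.1%) were above background in all 4 arrays, against 65.1% of all genes. In limma 0 passed the threshold, against 4.14% of all genes, and 6 had an unadjusted p under 0.05, against 23.9%. Among the 9000 genes with means in the range of the Hox genes, 811 had an unadjusted p under 0.05. Their median difference was 0.0049 and the median size 0.09. Whether the Hox genes differ from this family was not tested.

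Regulators and partners of Hox genes were read beside the same 4.14% of all genes called. In a fit of the genes with a mean of 5 or more, 8.2% were called. Whether these lists differ from other genes was not tested. The TALE homeodomain proteins bind DNA together with Hox proteins. Of 8 measured, 5 were above background and 0 passed. The largest difference was that of Pbx2, at 8.58 and 8.29 in knockout cells against 7.72 and 7.89 in control cells (0.63 ± 0.16, SE, limma adjusted p = 0.0645), with 2 other probe sets at -0.05 and 0.09. It passed after a further quantile normalization (limma adjusted p = 0.0423) and with each array centred on its median (limma adjusted p = 0.0497). Of 11 axial regulators, which include the Cdx genes and the cluster neighbours Evx1 and Evx2, 8 were above background and 0 passed. The largest difference was that of Fgf8, a signal of the caudal growth zone, at 6.55 and 5.75 in knockout cells against 5.50 and 5.52 in control cells (0.64 ± 0.25, SE), which was 0.24 without knockout replicate 1.

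In the retinoic acid pathway 1 of 17 measured genes rose and 0 fell. It was Crabp1, a cytoplasmic retinoic acid binding protein, at 10.54 and 10.32 in knockout cells against 9.55 and 9.45 in control cells (0.93 ± 0.14, SE, limma adjusted p = 0.0328). The median difference of the 17 genes was 0.10. Rarb, a receptor gene that retinoic acid induces, lay within background at 3.93 and 3.96 in knockout cells against 3.77 and 3.93 in control cells.

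Among chromatin regulators of the clusters, 1 of 12 Trithorax group genes rose and 0 fell. Men1, which encodes menin, a partner of the methyltransferase Kmt2a at Hox genes, was at 8.23 and 7.95 in knockout cells against 7.13 and 7.18 in control cells (0.93 ± 0.15, SE, limma adjusted p = 0.0340). 2 other probe sets of Men1 differed by 0.06 and 1.19. Of 17 PRC1 genes 1 rose and 1 fell, and the differences went both ways, 8 higher and 9 lower, with a median of -0.27. Bmi1, a ring finger subunit, fell, with 6.80 and 6.88 in knockout cells against 7.80 and 7.79 in control cells (-0.96 ± 0.13, SE, limma adjusted p = 0.0283), and its other probe set differed by -1.07. Pcgf1, a subunit of the variant complex that binds CpG islands, was at 5.76 and 6.06 in knockout cells against 5.19 and 5.02 in control cells (0.80 ± 0.16, SE, limma adjusted p = 0.0450). None of Men1, Bmi1, Pcgf1 and the retinoic acid gene Crabp1 passed with any 1 array left out. Of 11 PRC2 genes 0 passed, with 8 lower and 3 higher and a median of -0.28. The largest PRC2 difference was that of Mtf2 (1.54 ± 0.38, SE), at 11.36 and 11.61 in knockout cells against 10.61 and 9.28 in control cells. The groups did not overlap and the control arrays stood far apart, and the difference was 0.88 without control replicate 2 and 2.20 without control replicate 1, where it passed (limma adjusted p = 0.0367). The 3 other bright probe sets of Mtf2 differed by 0.33, -0.57 and -0.65. In all these comparisons the control arrays had the larger Actb gap, and its part was not tested.

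Genes that flank the clusters were read in the same way. Of the 3 nearest measured genes on each side of each cluster, 24 in all, 19 (79.2%) were above background in all 4 arrays, beside 65.1% of all genes. Of the 24, 1 fell past the threshold and 0 rose, beside 4.14% of all genes called. It was Snx10, a sorting nexin beside Hoxa, at 9.18 and 8.96 in knockout cells against 9.84 and 9.9997 in control cells (-0.85 ± 0.15, SE, limma adjusted p = 0.0385), which did not pass after removal of the gene span trend. Evx2, next to Hoxd13 in the genome and like it a homeobox gene, differed by 0.06, and Mtx2, on the other side of Hoxd, by -0.10.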

How the data were processed

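The authors deposited 1 log2 value for each probe set and array, and the submitters' processing notes name RMA and limma, without settings. Groups and replicates came from the titles. RMA equalises the distributions of the arrays, so a shift shared by most genes would not be seen. Of 45101 probe sets, 34945 that are no array controls carry 1 symbol in GEO's platform annotation, and checking by gene ID against RefSeq changed 0. The brightest probe set stood for each gene. Knockout was compared with control over all 18193 genes in limma 3.58.1 (lmFit, eBayes, R 4.3.3), without covariates, two-sided, Benjamini-Hochberg adjusted, threshold 0.05. The fit was also run on simulated data drawn from limma's own variance model. Those data held no array or RNA quality effects, so that run says nothing of such effects here. Genes named with values are members above background in all 4 arrays, the 4 largest differences among members with a group above it, and members of each pathway list past the threshold, or the largest. Hoxb9, Rarb, Evx2 and Mtx2 were named after their values were seen. The members and lists were chosen with earlier results of these data known. Each SE, interval and p-value is limma's, in which a gene's own variance is drawn toward that of all genes. Precision is limited by 4 arrays. Fits repeated with other settings are given in the closing section.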

Additional observations from a re-analysis of the deposited data

How the results depend on the processing

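The count of 0 Hox genes past the threshold held with an intensity trend, a robust fit, 2 normalizations, 2 filters on dim genes, averaged or singly fitted probe sets, the gene span trend removed, a log2 difference of 1 required, and without each array in turn. It was 2 with the replicate block (limma adjusted p = 0.00682 for Hoxc8 and 0.00329 for Hoxd13), in which 17.0% of all genes passed, and 2 with the fibroblast marker covariate. The labels do not say that the replicate number pairs the arrays. The replicate differences of the 2 groups correlated at 0.29 over genes. Leaving out an array leaves 1 group with a single array, assumed to vary like the other pair. The number of genes above background was 12 and lay between 11 and 17 under the other limits and settings, but was 2 with the limit raised by 1. The median Hox difference was -0.082 among genes with a mean of 5 or more, a filter that leaves 13 Hox genes. Over all 11789 genes kept by that filter the median was -0.055. Of 15 named Hox genes 7 changed sign under some setting, in 11 of 223 refits, none of them past the threshold. Hoxc8 and Hoxd13 stayed negative in all, from -1.05 to -0.39 and from -1.18 to -0.44. Bmi1, Crabp1, Men1, Pcgf1 and Snx10 did not pass without any 1 of the 4 arrays, nor with all probe sets fitted singly, except Bmi1. Pcgf1 and Snx10 also missed with averaged probe sets, and Snx10 with the gene span trend removed. Pbx2, Mtf2 and Fgf8, not past the threshold as reported, passed in 4, 5 and 2 of 15 settings, the block and the covariate among them for each. Over all genes 754 passed, but 481 with an intensity trend, 321 with averaged and 118 with singly fitted probe sets, 3092 with the block, 3166 with the covariate, 170 with the log2 difference of 1, and 4 to 50 without 1 array.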

Other observations

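Transcripts of the Hox loci outside the members gave these values. Hoxb5os, an antisense transcript of the Hoxb cluster, was at 4.97 and 4.90 in knockout cells against 5.71 and 5.31 in control cells, above background in all 4 arrays. Its difference of -0.57 ± 0.17 (SE) did not pass in a limma fit of all probe sets (adjusted p = 0.127), and its groups did not overlap. That fit is not the one used for the members, and fewer genes passed in it, 118 against 754. Hoxb5 itself lay within background in all arrays. The antisense transcripts Hoxa11os and Hoxd3os1, with 2 probe sets each, lay between 3.11 and 3.53, within background. Of the probe sets that carry 2 Hox symbols, 1 of the 2 shared by Hoxd3 and Hoxd4 was at 5.96 and 6.22 in knockout cells against 6.13 and 5.84 in control cells, above background in all arrays with overlapping groups. That shared by Hoxb7 and Hoxb8 was within background. Hox genes and antisense transcripts on the opposite strand were told apart only as far as the array's annotation does so.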
